A study of Mus musculus with 9 samples.

Results

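Small nucleolar RNAs (snoRNAs) and small Cajal body RNAs (scaRNAs) were described as a group in RNA-seq of mouse pulmonary microvascular endothelial cells held in room air or hyperoxia. The group comprised the genes of annotation type snoRNA or scaRNA whose FPKM averaged at least 5 over all 9 libraries. FPKM is a fragment count divided by transcript length and library depth. The members were thus chosen by their mean level, and the group held 43 genes of the 1558 snoRNA and scaRNA genes in the expression table, of which 539 were above 0 in at least 1 library. By symbol and annotation type, 8 members were C/D box snoRNAs (Snord), 10 were H/ACA box snoRNAs (Snora), 9 were scaRNAs, 7 were U3 entries (Rnu3) and 9 carried a Gm symbol that names no class. Membership was set by the mean level alone, so the levels themselves are a description. Gm24091 (5.016 FPKM) and Snord49a (5.017) lay just inside the limit, and Gm23442 (4.972) and Rnu3a (4.908) lay just outside it. A group mean of 5 was reached in HO-rWNT5A alone by 6 members: the 215-base entries of Rnu3b1, Rnu3b3 and Rnu3b4, and Gm23245, Snora74a and Scarna17. Snord49a reached it in RA alone. For these 7 the limit itself favours the group in which they are high, so their differences are given as descriptions, and counts are also given over the other 36.

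The primary cells were bought from a commercial supplier and kept for 48 h. The RA group had 21% O2, the HO group had 85% O2, and the HO-rWNT5A group had 85% O2 with 100 ng/ml of recombinant WNT5A, a secreted WNT ligand. Each group had 3 libraries of total RNA. Whether the replicates were separate cultures is not stated, so p-values here measure only the scatter among 9 libraries and that scatter may be technical.

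C/D box snoRNAs guide 2'-O-methylation and H/ACA box snoRNAs guide pseudouridylation, mostly of ribosomal RNA in the nucleolus, each within a particle of its own core proteins. scaRNAs guide the same modifications on spliceosomal RNAs in Cajal bodies and can carry both kinds of box. U3, encoded by the Rnu3 genes, does not guide a modification but is needed for early cleavage of the ribosomal RNA precursor. In mammals most snoRNAs are released from introns of host genes, many of which code for ribosomal or translation proteins.

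The following sequences are those on which the results below turn. All are given 5′ to 3′ on the strand of the RNA, from mouse build GRCm38 with the gene limits of GENCODE M21. The Rnu3b1 gene on chromosome 11 is annotated as a pair of entries, at chr11:87443237-87443452 and chr11:87443237-87443451 on the plus strand, shown because much of the U3 signal moved between them. The capital marks the single base by which the longer entry exceeds the shorter.
Rnu3b1, 216 bases: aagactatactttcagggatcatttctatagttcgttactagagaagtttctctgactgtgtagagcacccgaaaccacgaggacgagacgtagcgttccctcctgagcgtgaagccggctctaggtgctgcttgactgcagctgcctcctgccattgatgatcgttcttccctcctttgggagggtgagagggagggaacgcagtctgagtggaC
Rnu3b1, 215 bases: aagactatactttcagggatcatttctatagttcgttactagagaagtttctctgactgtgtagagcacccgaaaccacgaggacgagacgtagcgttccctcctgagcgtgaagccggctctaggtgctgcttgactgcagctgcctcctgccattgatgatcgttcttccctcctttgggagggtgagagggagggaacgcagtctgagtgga

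Next come 3 related H/ACA RNAs, shown because reads may not separate them. Snora73a (chr4:132352775-132352979, minus strand) and Snora73b (chr4:132352322-132352526, minus strand) both lie in Snhg3, the former overlapping an exon and the latter in an intron. Gm26448 (chr9:120129351-120129553, plus strand) lies in an intron of Rpsa, a ribosomal protein gene. Capitals mark the ACA that stands 3 bases before the end.
Snora73a: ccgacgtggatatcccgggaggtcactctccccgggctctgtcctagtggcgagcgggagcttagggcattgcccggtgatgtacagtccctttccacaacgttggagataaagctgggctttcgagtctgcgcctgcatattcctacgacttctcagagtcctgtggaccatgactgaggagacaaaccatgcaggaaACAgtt
Snora73b: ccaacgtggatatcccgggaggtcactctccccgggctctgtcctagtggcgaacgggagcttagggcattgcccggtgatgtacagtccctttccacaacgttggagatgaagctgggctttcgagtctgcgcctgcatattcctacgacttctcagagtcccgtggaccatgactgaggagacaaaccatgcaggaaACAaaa
Gm26448: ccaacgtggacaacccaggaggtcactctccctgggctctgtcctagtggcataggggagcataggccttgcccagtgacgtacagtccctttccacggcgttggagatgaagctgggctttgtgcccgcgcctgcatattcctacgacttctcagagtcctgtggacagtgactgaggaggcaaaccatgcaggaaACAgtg

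Snora21 (chr11:97781639-97781775, minus strand, in an intron of the ribosomal protein gene Rpl23) and Snora31 (chr14:75847905-75848034, plus strand, in an intron of Tpt1) are H/ACA RNAs whose HO libraries stood apart from both other groups. Capitals again mark the ACA near the end.
Snora21: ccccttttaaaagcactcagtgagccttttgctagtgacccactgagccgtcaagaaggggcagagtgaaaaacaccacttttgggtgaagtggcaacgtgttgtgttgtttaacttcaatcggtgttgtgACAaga
Snora31: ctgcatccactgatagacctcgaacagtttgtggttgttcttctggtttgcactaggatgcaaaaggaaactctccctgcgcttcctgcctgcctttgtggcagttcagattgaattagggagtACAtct

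Snord17 (chr2:144265979-144266216, minus strand, in an intron of Snx5) was the most abundant C/D member and is shown as an example of that class. Capitals mark the C box near the start and the D box near the end.
Snord17: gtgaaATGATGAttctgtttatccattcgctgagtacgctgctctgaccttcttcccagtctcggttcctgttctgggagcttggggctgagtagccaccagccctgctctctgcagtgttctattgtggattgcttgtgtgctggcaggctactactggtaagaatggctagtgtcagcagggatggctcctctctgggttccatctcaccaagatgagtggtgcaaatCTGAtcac

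The boxes were searched on the strand of the RNA: the C box as ATGATGA or GTGATGA anywhere, the D box as CTGA in the last 20 bases, and the ACA as these letters exactly 3 bases before the end. Both the C and the D box were found in 6 of the 8 C/D members (75.0%), against 71.4% of all 98 C/D genes and 20.8% of all 1558 snoRNA and scaRNA genes. The ACA was found in 8 of the 10 H/ACA members (80.0%), against 83.3% of all 42 H/ACA genes and 19.3% of all 1558 genes. The members thus held their boxes about as often as other genes of their class. Of the 9 scaRNA members, 6 held the C and D boxes and 2 held the terminal ACA. Among the 9 Gm members with no class in their symbol, 5 held the terminal ACA and 3 held both the C and the D box. Gm26448 was 88.3% identical to Snora73a, while no other Gm member reached 70% identity with any named gene.

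The libraries held an estimated 21300000 to 26500000 fragments, read from the smallest steps between low FPKM values. The members together took 0.1991% to 0.2668% of all FPKM. HO replicate 3 stood apart from the other HO libraries. Small RNA genes of all kinds took 20.61% of its FPKM, against 27.8% and 27.02% in HO replicates 1 and 2, and retained-intron transcripts took 7.09%, against 5.49% and 5.26%. The counts, class sums and medians of the HO against RA comparison are given with and without it. In RA replicates 1, 2 and 3 small RNA genes took 21.86%, 25.44% and 24.64% of FPKM. In HO-rWNT5A they took 28.51%, 26.55% and 23.97%. The small RNA share thus varied within and between all groups, and its part in the class sums and medians below was not tested. Markers of the labelled cell type were mostly near 0: of 12 pan-endothelial genes, 2 averaged at least 5 FPKM and 8 were below 1, with Pecam1 at 0.093, Cdh5 at 0.0543 and Vwf at 0.0441. Of 8 pericyte and smooth muscle genes, 6 averaged at least 5 FPKM, with Acta2 at 1570 and Tagln at 886. The same level was reached by 2 of 5 fibroblast, 3 of 5 epithelial and 0 of 4 leukocyte genes. The summed pericyte and smooth muscle markers ranged from 2950 to 3300 FPKM over RA libraries, 2410 to 3310 over HO libraries and 2700 to 3110 over HO-rWNT5A libraries. The summed pan-endothelial markers ranged from 51.3 to 55.8 FPKM over RA libraries, 48.9 to 56.0 over HO libraries and 40.9 to 50.6 over HO-rWNT5A libraries, the last below RA without overlap. The summed fibroblast markers ranged from 244 to 261, 197 to 243 and 178 to 245 in the same order, with HO below RA without overlap. The epithelial (86.1 to 116) and leukocyte (1.28 to 1.68) sums overlapped between all groups. The part of cell identity in the results below was not tested, and in these bulk samples fewer cells of a type and less RNA per cell cannot be told apart.

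Levels below are FPKM after scaling each library by the median of its ratios to the geometric mean. Scarna2, which guides 2'-O-methylation of U2 spliceosomal RNA and is transcribed as its own gene, was the most abundant member at 271 FPKM and made up 30.1% of the summed member FPKM. It was followed by the scaRNA gene Gm22442 in Chd3 (69.5), the C/D RNA Snord17 and the scaRNA Scarna10 in Ncapd2. The most abundant H/ACA members were Snora73b, Snora73a, Snora31 and Snora23. Snora73, also called U17 or E1, is required for processing of 18S ribosomal RNA. After Snord17, the most abundant C/D members were Snord15a in Rps3, Snord104 and Snord93.

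Longer RNAs had the higher FPKM. How well short RNAs were recovered in these libraries was not measured. Ranks of abundance given here are therefore ranks of FPKM and may not hold between RNAs of different length. Of the 39 snoRNA and scaRNA genes of at least 200 bases, 18 were members (46.2%), against 16 of 1057 genes of 100 to 199 bases (1.51%) and 9 of 462 shorter genes (1.95%). Across the 43 members, Spearman's rho of mean FPKM against length was 0.64, a description across genes that share the same libraries. The 9 members under 100 bases lay between 5.02 and 7.15 FPKM. At these depths 1 FPKM of a 70-base RNA stands for 1.49 to 1.86 fragments, and of the 414-base Scarna2 for 8.82 to 11. An estimated 29 of the 43 members therefore rested on fewer than 50 fragments per library on average, down to 8.38 for Snord49a, while Scarna2 rested on 2600. The median within-group SD of log2(FPKM + 1) was 0.262 over the 36 members outside U3, against 0.108 over all 13831 genes tested.

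**Figure D1:**
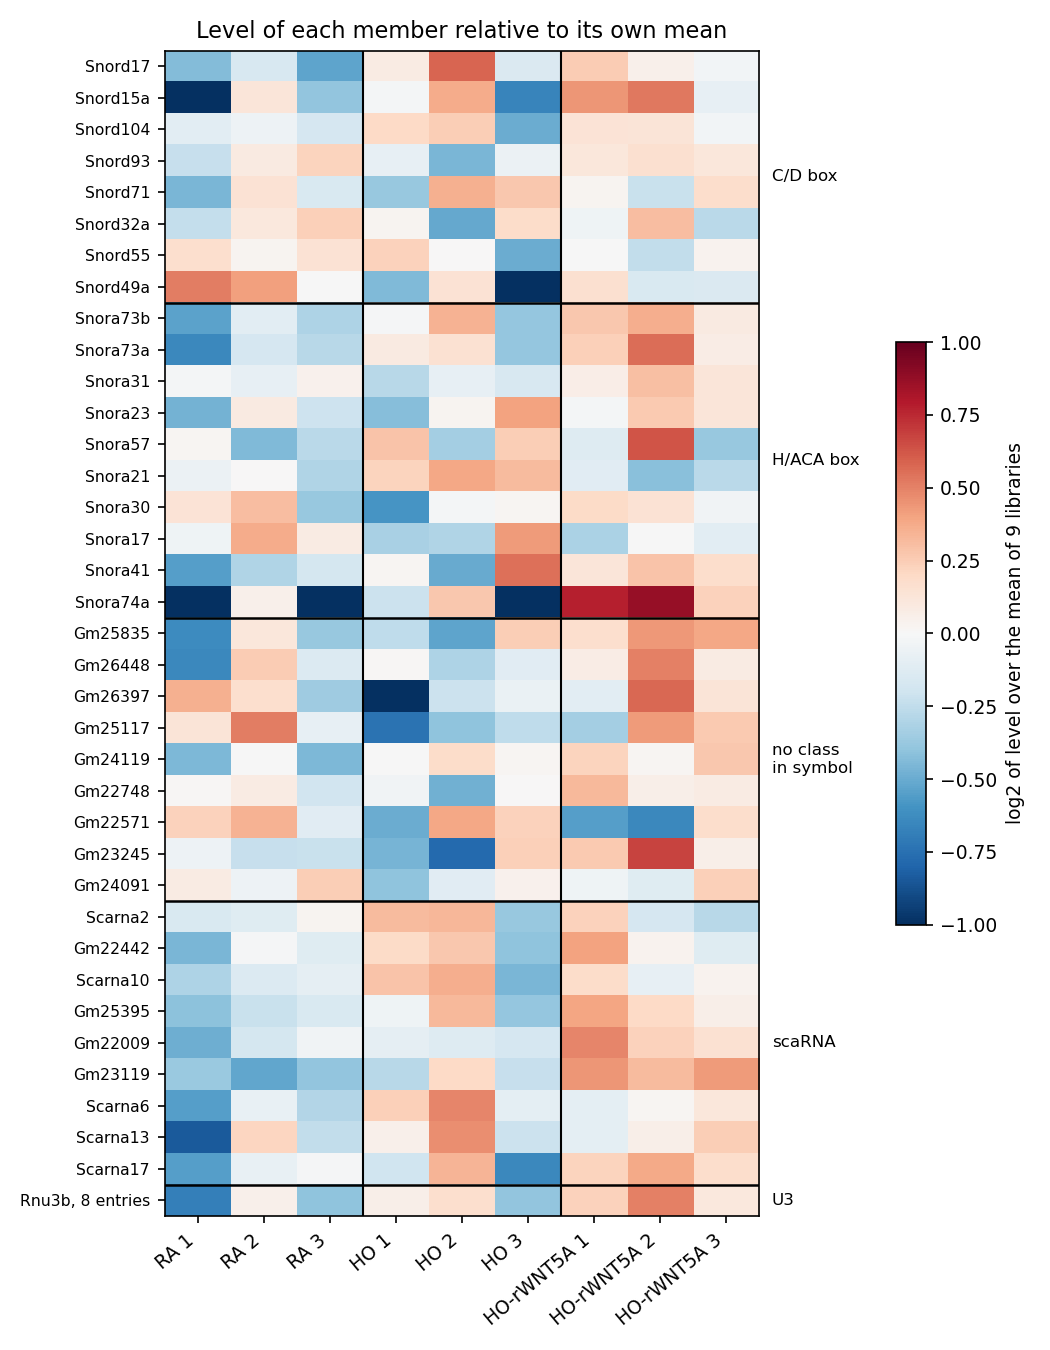
Colour gives log2 of the scaled FPKM over the gene's own mean of 9 libraries for 36 members and for the 8 Rnu3b entries summed (rows, by class and then by level) in each library (columns), with the scale ending at -1 and 1. HO replicate 3 is blue for most scaRNAs, where HO replicates 1 and 2 are mostly red, and the HO-rWNT5A columns are red for most H/ACA RNAs and scaRNAs.

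The U3 entries showed the largest differences between groups of any member, and these depended on which of a pair of nested annotations the fragments had been given to. Rnu3b lies at 4 places on chromosome 11, all inside an intron of Tex14, and each place has a 216-base and a 215-base entry. All 4 copies have the same sequence, and the 215-base entry is the 216-base entry without its last base. A fragment inside the shared 215 bases therefore cannot be placed by its sequence in 1 of the 8 entries. In RA replicates 1, 2 and 3 the 215-base entries held 13.2%, 18.8% and 16.7% of Rnu3b FPKM. In HO they held 13.2%, 12% and 27.0%. In HO-rWNT5A they held 97.4%, 96.5% and 27.9%. The shorter entries thus held nearly all FPKM in HO-rWNT5A replicates 1 and 2 and the smaller part in the other 7 libraries. In HO-rWNT5A replicate 3 only Rnu3b1 gave most of its FPKM (88.0%) to the shorter entry, and the other places gave 7.27% to 12.5%.

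The 216-base entry of Rnu3b1 had 7.21, 7.62 and 8.95 FPKM in the RA libraries, 12.3, 13.3 and 9.7 under HO alone, and 0.394, 0.619 and 1.79 with the ligand. The 215-base entry had 1.59, 6.97 and 1.3 in the RA libraries, 1.79, 3.2 and 0.601 under HO alone, and 15.9, 18.4 and 13.1 with the ligand. The HO-rWNT5A libraries thus overlapped neither other group at either entry, in opposite directions. Summed over all 8 entries, Rnu3b reached 37.2, 62.0 and 45.3 FPKM in the RA libraries, 62.2, 67.1 and 45.4 under HO alone, and 70.0, 84.9 and 64.2 with the ligand. The summed level lay above RA in all 3 HO-rWNT5A libraries, and HO overlapped both groups. The within-group SD of log2(FPKM + 1) was 0.294 for the sum, against a median of 1.1 over the 7 single U3 members.

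**Figure D2:**
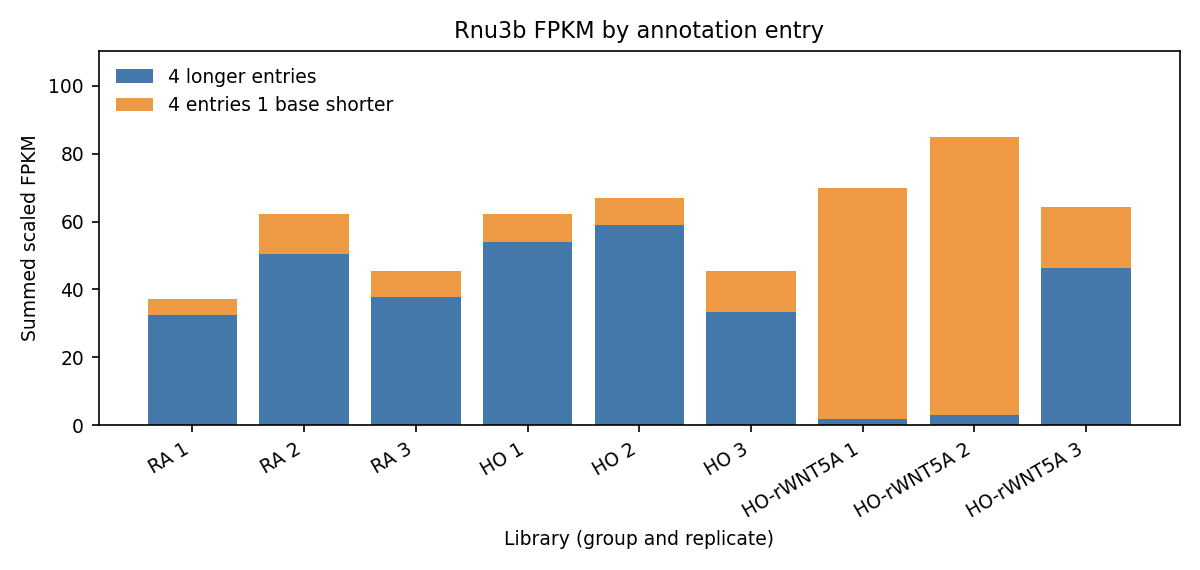
Bars give the summed scaled FPKM of Rnu3b in each library from 0, split into the 4 entries of 216 bases (blue) and the 4 entries of 215 bases (orange). The orange part is 97.4% and 96.5% of the bar in HO-rWNT5A replicates 1 and 2 and at most 27.9% in the other 7 libraries, while the whole bars run from 37.2 to 84.9.

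Summed by class, all members together gave RA a mean of 800 ± 69.2 FPKM, HO one of 931 ± 168 and HO-rWNT5A one of 965 ± 82.2 (± SD, n = 3 in each here and below). These sums are descriptions and were not tested. The C/D members summed to 90.0, 110.0 and 91.4 FPKM in the RA libraries, 116, 150 and 99.2 under HO alone, and 131, 120 and 112 with the ligand. The HO-rWNT5A libraries lay above all RA libraries, with a ratio of means of 1.25, while HO overlapped both groups. Snord17 alone averaged 53.4 for RA, 79.6 for HO and 73.7 for HO-rWNT5A, against C/D sums of 97.1, 122 and 121. The differences of the C/D sum thus rest largely on Snord17. Over the 8 C/D members the median log2 difference was -0.01 for HO against RA, with 4 positive. For HO-rWNT5A against RA it was 0.11, with 5 positive. The H/ACA members summed to 112, 141 and 124 in the RA libraries, 142, 163 and 136 under HO alone, and 167, 192 and 154 with the ligand. The ratio of means was 1.17 for HO over RA, 1.16 for HO-rWNT5A over HO and 1.36 for HO-rWNT5A over RA, and only in the last did the groups not overlap. Snora73a averaged 24.5, 30.6 and 38.5 in RA, HO and HO-rWNT5A, and its near copy Snora73b 39.9, 49.8 and 58.4. This pair, which reads may not separate, thus carried much of the H/ACA sum and of its rise. Of the 10 H/ACA members, 8 had a positive log2 difference in HO-rWNT5A against RA. The scaRNA members summed to 428, 477 and 503 in the RA libraries, 605, 642 and 404 under HO alone, and 629, 506 and 482 with the ligand. All 3 groups overlapped, and Scarna2 made up much of each sum. The overlap of HO with RA in the C/D, H/ACA and scaRNA sums came from HO replicate 3 alone. With it left out, the log2 ratio of HO to RA went from 0.33 to 0.46 for C/D, from 0.22 to 0.27 for H/ACA, from 0.23 to 0.41 for scaRNAs and from 0.24 to 0.42 for the 7 U3 members. Without Scarna2 the scaRNA sum averaged 214 ± 25 for RA, 255 ± 53.7 for HO and 278 ± 28.5 for HO-rWNT5A, and HO-rWNT5A lay above RA without overlap at a ratio of 1.3. All 10 annotated U3 entries, the 8 of Rnu3b and 2 of Rnu3a, averaged 55.7 ± 13.5 for RA, 66.8 ± 13.4 for HO and 84.7 ± 10.9 for HO-rWNT5A. HO-rWNT5A lay above RA without overlap at a ratio of 1.52. The 7 U3 entries that met the rule summed to 47.5 ± 12.2, 56.1 ± 13.2 and 62.6 ± 6.07 in the same order, and these overlapped. The 9 members without a class in their symbol summed to 59.9 ± 8.34, 56.0 ± 8.6 and 71.7 ± 6.42.

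**Figure D3:**
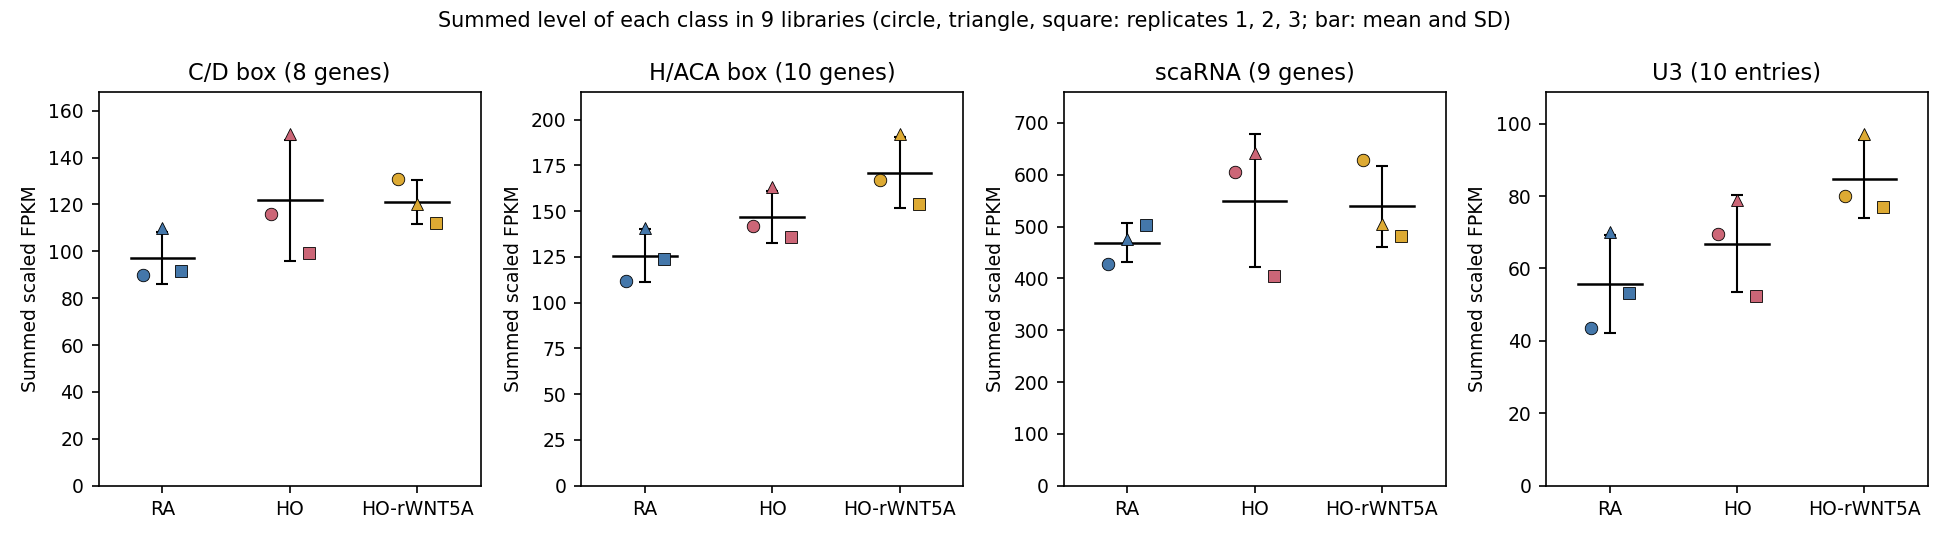
Points give the summed scaled FPKM of each class in every library, with the group mean and SD as black bars and each axis starting at 0. The HO-rWNT5A points lie above all RA points for the C/D, H/ACA and U3 sums but not for the scaRNA sum, and HO replicate 3 (square) is the lowest HO point in each panel.

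The HO against RA comparison asked what hyperoxia did to these RNAs. No member of 43 passed limma at an adjusted p under 0.05, where 1.97% of all 13831 genes did. The count was also 0 with copies summed, where 2.04% of all genes passed. Copies were snoRNA or scaRNA entries with the same symbol, the same sequence or an overlap on the same strand. At an unadjusted p under 0.05 there were 8 members (18.6%), against 18.1% of all genes. The median log2 difference of the members was 0.11, against 0 for all genes by the scaling, and 28 of 43 were positive. Over the 36 members that reached 5 FPKM in at least 2 group means, the median was 0.18 and 25 were positive. The groups did not overlap for 5 members that were higher and 2 that were lower in HO, against 11.3% and 10.1% of all genes.

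Among C/D members, Snord17 had 50.9, 61.6 and 47.7 FPKM in RA and 73.0, 103 and 62.4 in HO. All HO libraries lay above all RA libraries, with HO replicate 3 the closest, and limma gave a log2 difference of 0.54 ± 0.164 (SE; adjusted p = 0.121). Snord49a, at the lower end of the member levels, had 7.11, 6.66 and 4.99 in RA and 3.69, 5.52 and 2.41 in HO, and the groups overlapped (log2 difference -0.61, limma adjusted p = 0.155). Among H/ACA members, Snora21 had 6.15, 6.41 and 5.19 in RA and 7.47, 8.35 and 7.96 in HO. Its groups did not overlap, and its log2 difference of 0.37 ± 0.0905 had the smallest p of the members (limma adjusted p = 0.07). Snora31 had 17.6, 16.9 and 18.4 in RA and 14.7, 16.9 and 16 in HO, so that the HO libraries lay at or below the lowest RA library (log2 difference -0.15, limma adjusted p = 0.333).

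All 9 scaRNA members had a positive log2 difference, with a median of 0.22, and 8 of 9 had one with the FPKM as deposited. Without RA replicate 1 the count was 7, and leaving out 1 library moved the median to between 0.09 (without HO replicate 2) and 0.41 (without HO replicate 3). Scarna6, which shares its host Atg16l1 with Gm25395, had 10, 13.9 and 12 FPKM in RA and 17.3, 20.6 and 13.7 in HO, and HO replicate 3 fell within the RA range (log2 difference 0.48 ± 0.14, limma adjusted p = 0.112). Scarna2 itself had 243, 248 and 276 in RA and 336, 341 and 208 in HO. Its HO replicates 1 and 2 were the highest of these libraries and HO replicate 3 the lowest (log2 difference 0.17, limma adjusted p = 0.669). Among the Gm members, Gm25117 in Nap1l1 had 6.79, 8.87 and 5.86 in RA and 3.72, 4.7 and 5.21 in HO, all HO values being lower (log2 difference -0.55 ± 0.182, limma adjusted p = 0.152). For Rnu3b summed over its entries, HO exceeded RA by 0.28 ± 0.188 on the log2 scale (limma adjusted p = 0.467).

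HO replicate 3 set much of the spread in this comparison. Against the mean of HO replicates 1 and 2 its log2 class sums were -0.63 for scaRNAs, -0.43 for C/D, -0.16 for H/ACA and -0.62 for the U3 members, while the Gm members without a class were at 0.37. Of the 11 members of at least 200 bases outside U3, 10 were lower in it, with a median log2 ratio of -0.5. Of the 25 members under 200 bases, 17 were higher in it, with a median of 0.24. With this library left out, 4 members passed limma, all higher in HO, where 5.09% of all genes did. They were Snord17 (log2 difference 0.7, adjusted p = 0.0378), Scarna6 (0.63, adjusted p = 0.0313), Scarna10 (0.49, adjusted p = 0.0224) and Snord104 (0.29, adjusted p = 0.0475). Scarna10, the hybrid-box RNA U85 that acts on U5 spliceosomal RNA, and Snord104 each had HO replicate 3 below every RA library, at 45.9 against at least 50.9 FPKM and at 5.06 against at least 6.35.

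The sign of the difference also went with length. With copies summed into 37 features, Spearman's rho of the log2 difference against length was 0.62 for HO against RA, -0.03 for HO-rWNT5A against HO and 0.54 for HO-rWNT5A against RA. These are descriptions across genes measured in the same libraries, and comparisons that share a group share its libraries. Of the 11 members of at least 200 bases outside U3, all 11 were positive in HO against RA (median 0.29) and in HO-rWNT5A against RA (median 0.4), and 6 were positive in HO-rWNT5A against HO. The 25 members under 200 bases had 12, 17 and 20 positive differences in the same order, with medians of -0.09, 0.16 and 0.25. The limit of 200 bases was chosen after the values were seen. The 11 long members include the scaRNAs Scarna2, Scarna10, Gm25395, Gm22009, Scarna6 and Scarna13 and the near copies Snora73a and Snora73b. The length and scaRNA patterns thus rest in large part on the same genes, and length, class and level cannot be told apart here. With the FPKM as deposited, 10 of the 11 long members were positive in HO against RA, and without RA replicate 1 there were 9. Without HO replicate 3 all 11 were positive and their median in HO against RA was 0.47, and that of the shorter members stayed at -0.09. In HO-rWNT5A against RA the count was 10 with the FPKM as deposited. HO replicate 3, with its lower share of small RNA genes, had most long members low, and the part of that share in this pattern was not tested.

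**Figure D4:**
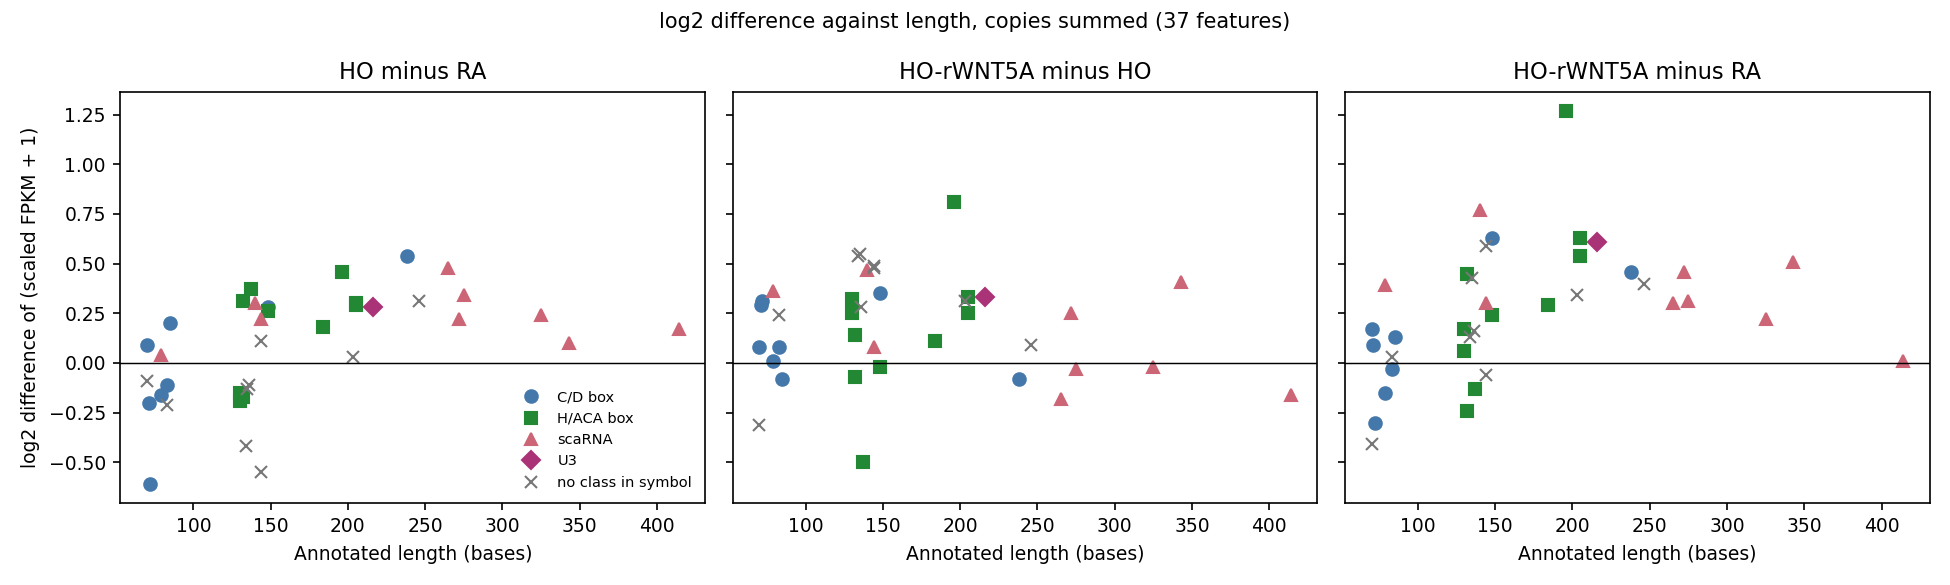
Each point is 1 of 37 features after copies (same symbol, same sequence or overlap on the same strand) were summed. Its annotated length in bases (x axis) is set against its log2 difference of scaled FPKM + 1 (y axis) in the 3 comparisons. In HO minus RA and HO-rWNT5A minus RA the points right of 200 bases lie above 0, while shorter RNAs spread to both sides, and HO-rWNT5A minus HO shows no such slope.

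The HO-rWNT5A against HO comparison asked what the added ligand did in hyperoxia. Of 43 members, 1 passed limma, the 216-base entry of Rnu3b1, which fell by 2.78 on the log2 scale (SE 0.219, adjusted p = 0.00187). It was the only gene of all 13831 to pass (0.00723%). Without HO replicate 3 it was again the only member, where 0.195% of all genes passed. With copies summed, which joined the shorter and longer Rnu3b entries, no gene passed (0.0%). The difference of summed Rnu3b was then 0.33 ± 0.188 (limma adjusted p = 0.616). At an unadjusted p under 0.05 there were 17 members (39.5%), against 9.2% of all genes, and 6 of these 17 were single U3 entries. The groups did not overlap for 7 members that were higher and 2 that were lower, against 6.27% and 6.7% of all genes. The median log2 difference of the members was 0.15, and 29 of 43 were positive. Over the 36 members at 5 FPKM or more in at least 2 group means, the median was 0.09, 22 were positive and 13 had an unadjusted p under 0.05. That set kept the 216-base Rnu3b entries, which fell, and dropped the 215-base entries of Rnu3b1, Rnu3b3 and Rnu3b4. Over the 36 members outside U3, the median was 0.2, 26 were positive and 11 (30.6%) had an unadjusted p under 0.05. These 36 hold Gm23245, Snora74a and Scarna17, which met the limit only through HO-rWNT5A.

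The scaRNA gene Gm23119, in no annotated host and next to Scarna17 on chromosome 18 (chr18:74778561-74778700, minus strand), had 12.3, 17.1 and 12.7 FPKM in HO and 20.2, 18.5 and 20.0 with the ligand. The groups did not overlap (log2 difference 0.47 ± 0.107, limma adjusted p = 0.445). Gm22009 had 32.3, 31.5 and 30.7 in HO and 48.3, 40.3 and 38.2 with the ligand, again without overlap (log2 difference 0.41 ± 0.113, limma adjusted p = 0.5). Both scaRNAs were thus higher in every HO-rWNT5A library, although neither passed over all genes. Snora21 had 7.47, 8.35 and 7.96 in HO and 5.91, 4.77 and 5.3 with the ligand. The HO-rWNT5A libraries were all lower and overlapped RA (log2 difference -0.5 ± 0.0905, limma adjusted p = 0.32). Snora31 showed the opposite order, with 14.7, 16.9 and 16 in HO and 18.7, 22.0 and 19.4 with the ligand (log2 difference 0.32 ± 0.074, limma adjusted p = 0.456). For both RNAs the HO libraries are the same ones that entered the comparison with RA. Gm26448 and the C/D RNA Snord93 were also higher without overlap, by 0.31 and 0.29 on the log2 scale (limma adjusted p = 0.608 and 0.503).

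The HO-rWNT5A against RA comparison set hyperoxia with the ligand against room air without it. Of 43 members, 4 passed limma, where 4.26% of all 13831 genes did. Of these, 3 were higher and 1 was lower, against 2.39% and 1.87% of all genes. With copies summed the count was 2, both scaRNA genes, where 4.28% of all genes passed. With HO replicate 3 left out of the shared variance estimate it was 8, where 7.35% of all genes passed. The groups did not overlap for 16 members that were higher and 1 that was lower, against 16.3% and 16.5% of all genes, and 5 of the 16 were H/ACA RNAs and 5 were scaRNAs. The median log2 difference was 0.24, and 31 of 43 were positive. Over the 36 members at 5 FPKM or more in at least 2 group means, 3 passed, the median was 0.17, 25 were positive, and 12 were higher and 1 lower without overlap. At an unadjusted p under 0.05 there were 19 members (44.2%), against 20.9% of all genes, and all 7 single U3 members were among the 19. Over the 36 members outside U3 there were 12 (33.3%), the median log2 difference was 0.27 and 28 were positive. These 36 hold Gm23245, Snora74a and Scarna17, which met the limit only through HO-rWNT5A.

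Gm23119 rose from 11.5, 10.4 and 11.3 FPKM in RA to 20.2, 18.5 and 20.0 in HO-rWNT5A, a log2 difference of 0.77 ± 0.107 (limma adjusted p = 0.00567). HO lay between these groups, and no library of one group reached another. Gm22009 (chr3:69085105-69085447, minus strand, in an intron of Kpna4), which holds the C and D boxes, rose from 24.5, 30.5 and 33.6 to 48.3, 40.3 and 38.2 (log2 difference 0.51 ± 0.113, limma adjusted p = 0.0361). Its call was lost with RA replicate 1 or 2, or any HO-rWNT5A library, left out (adjusted p between 0.0588 and 0.104). The other calls were the 216-base entry of Rnu3b1 (fell by 2.27, SE 0.219, limma adjusted p = 0.00261) and its 215-base entry (higher by 2.2, SE 0.448, limma adjusted p = 0.0265). The 215-base entry is a member only through its level in HO-rWNT5A, so its place among the calls is no independent evidence. Summed Rnu3b differed by 0.61 ± 0.188 (limma adjusted p = 0.0935), and the summed Rnu3a entries by 0.58 ± 0.169 (limma adjusted p = 0.0825).

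Several H/ACA RNAs came close to the threshold. Snora73a had 19.9, 27.8 and 25.7 FPKM in RA and 36.7, 45.9 and 32.9 in HO-rWNT5A (log2 difference 0.63 ± 0.167, limma adjusted p = 0.0611). Its near copy Snora73b had 34.0, 46.0 and 39.8 in RA and 59.4, 63.4 and 52.5 in HO-rWNT5A (log2 difference 0.54 ± 0.164, limma adjusted p = 0.09). The RNAs are 96.6% identical and differ at 7 positions, so their reads are not independent. The third relative, Gm26448, differed by 0.34 ± 0.175 (limma adjusted p = 0.301). Snora74a, also called U19, had the largest difference outside U3, with 1.99, 5.43 and 1.78 in RA against 8.98, 9.57 and 6.15 in HO-rWNT5A (log2 difference 1.27 ± 0.336, limma adjusted p = 0.0611), and rested on about 23.7 fragments per library. It met the limit of 5 FPKM only through HO-rWNT5A, so its difference was favoured by the choice of members. Gm25835 in Eif4a1, which holds both the C and the D box, had 10.3, 17.3 and 12.3 against 17.9, 21.6 and 20.9 (log2 difference 0.59, limma adjusted p = 0.116). Snord17 differed by 0.46 (limma adjusted p = 0.14), with all 3 HO-rWNT5A libraries above RA.

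**Figure D5:**
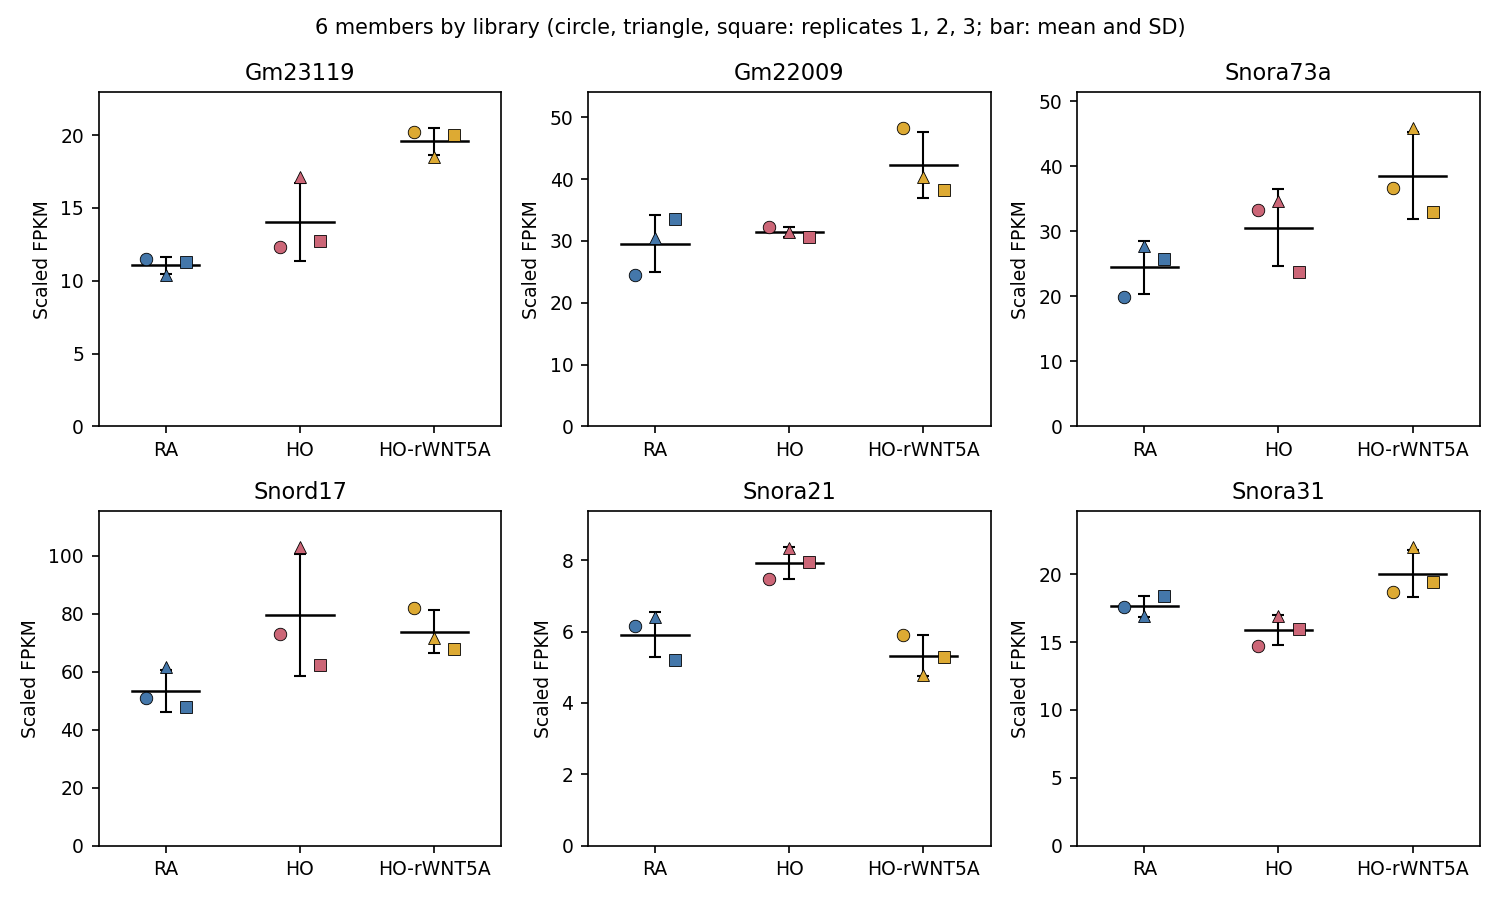
Points give the scaled FPKM of 6 members in each library, with the group mean and SD as black bars and each axis starting at 0. Gm23119 and Gm22009 are highest in all 3 HO-rWNT5A libraries, while for Snora21 the 3 HO libraries lie above both other groups and for Snora31 at or below them.

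Of the 43 members, 34 lay in introns, 3 overlapped exons of a host and 6 lay outside any host on the same strand. A host gene was tested for 30 members (28 hosts), and no host passed limma in any comparison. The hosts' median log2 difference was -0.01 for HO against RA, 0 for HO-rWNT5A against HO and -0.04 for HO-rWNT5A against RA. Member and host had the same sign in 16, 15 and 11 of 30 cases, and Spearman's rho across these 30 pairs was 0.04, -0.19 and -0.01. Kpna4, the host of Gm22009, had a log2 difference of 0 in the comparison in which Gm22009 rose. Snhg3, the host of both Snora73 genes, was at 0.03 in that comparison.

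Protein genes of the same pathway were listed as background to these RNAs. The lists held 11 C/D box core and assembly proteins such as Fbl and Nop56, 6 H/ACA proteins such as Dkc1, 9 Cajal body and trafficking genes, 12 U3 particle and early processing genes, and 8 genes of small RNA 3′ processing and decay. None of these passed limma in HO against RA or in HO-rWNT5A against HO. In HO-rWNT5A against RA 1 passed, Utp4, a subunit of the complex that U3 joins on the ribosomal RNA precursor. It rose from 18.6 to 21.5 FPKM (log2 difference 0.2 ± 0.0467, limma adjusted p = 0.0441). Wrap53, which carries scaRNAs to Cajal bodies, differed by 0.26 in that comparison (limma adjusted p = 0.0682). List medians ran from -0.09 to 0.06 over the 3 comparisons.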

How the data were processed

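Total RNA of 9 libraries was sequenced as paired ends. Per the labels' protocols the authors trimmed reads with Skewer 0.2.2, aligned them with STAR 2.5.3a to an Ensembl genome and assembled transcripts with StringTie 1.3.1. The deposited table holds FPKM for 143043 transcripts, so a count test was not used. Strandedness is not given in the sources used here. Of 142351 Ensembl transcripts, 141441 (99.36%) were in GENCODE M21, whose gene types were used. FPKM was summed per gene, and libraries were scaled by median ratio. limma 3.58.1 in R 4.3.3 was fitted to log2(scaled FPKM + 1) of the 13831 genes with a mean of at least 1, over all 9 libraries and with a variance trend. All 43 members met that filter. p-values are two-sided with Benjamini-Hochberg adjustment over all genes tested. Differences are on that log2 scale, which understates changes of low genes.

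Fragment numbers are estimates: only 5.62% to 6.84% of values were whole multiples of 1 fragment (within 0.02), so reads were not recovered. Members and gene lists were chosen with earlier results of these data known. Named members are those past the threshold, the most abundant 4 of each class, those with the smallest p or largest difference without overlap, all Rnu3 entries and those nearest the limit of 5 FPKM. On simulated data (13831 genes, 100 changed at each size), the fit called 82 genes of 1.5-fold and 87 of 2-fold change and 2 unchanged genes for HO against RA. For HO-rWNT5A against HO it called 81, 92 and 8, and for HO-rWNT5A against RA 78, 95 and 10. The changed genes were drawn from all genes tested, each with its own spread (median SD 0.108). Members outside U3 had a median SD of 0.262 and single U3 entries 1.1, so these call rates do not carry over to the members. Alternatives were the added constant, the low-value filter, the scaling, the variance model, the libraries fitted, the replicate block, summed copies, leaving out each library and, chosen after seeing the data, only members at 5 FPKM or more in at least 2 group means.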

Additional observations from a re-analysis of the deposited data

How the results depend on the processing

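No result reversed its direction among those with a test, and the medians over members stayed positive in all settings, at 0.03 to 0.21 for HO against RA, 0.09 to 0.25 for HO-rWNT5A against HO and 0.17 to 0.29 for HO-rWNT5A against RA. Class sums stayed within 1 SD of their main value, but in HO-rWNT5A against HO the C/D, scaRNA and 7-entry U3 sums took either sign. Counts of members past the threshold moved. The share of all genes that passed moved as well and is given in brackets. Leaving out 1 library gave 0 to 4 for HO against RA, with 4 without HO replicate 3 (5.09%). For HO-rWNT5A against HO it gave 1 to 4. The count was 4 without HO-rWNT5A replicate 3 (0.0362%) and 2 without RA replicate 2 (0.0145%) or HO replicate 2 (0.0217%). For HO-rWNT5A against RA it gave 2 to 8. The count was 2 without RA replicate 1 (0.904%) or HO-rWNT5A replicate 1 (1.47%) or 2 (1.07%). It was 7 without HO-rWNT5A replicate 3 (1.29%) and 8 without HO replicate 2 (5.92%) or 3 (7.35%). With no filter on low values, HO-rWNT5A gave 0 against HO (0.0%) and 2 against RA (0.654%). With copies summed these were also 0 (0.0%) and 2 (4.28%). The 2 compared groups alone gave 10 for HO-rWNT5A against RA (9.62%). Whether same-numbered libraries belong together is not stated. Their deviations from the group means correlated at r from -0.118 to 0.28. The own number matched best for HO-rWNT5A replicates 1 and 3 with HO and for replicate 2 with RA, and not otherwise. With 3 libraries per group these values cannot decide pairing. The replicate block gave 0, 2 and 6 members in HO against RA, HO-rWNT5A against HO and HO-rWNT5A against RA. The share of all genes was then 0.839%, 0.0145% and 2.84%. Gm22009 also lost its call with no filter, with the FPKM as deposited and under the block (adjusted p = 0.13, 0.0518 and 0.0691), and the 215-base Rnu3b1 entry with no filter, with robust variances and without RA replicate 1 or 3 or any HO-rWNT5A library (0.0663 to 0.125), whereas Gm23119 kept its call against RA in every setting. Over all genes, the split of higher and lower calls was 167 and 106 for HO against RA, but 103 and 179 with the FPKM as deposited and 26 and 30 with equal totals; for HO-rWNT5A against RA it was 331 and 258, then 209 and 615, and 93 and 164. The causes were not tested. Summing all annotated U3 entries was chosen after seeing the data. Low fragment numbers limit the short members most.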

Other observations

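Below the limit of 5 FPKM, 143 snoRNA and scaRNA genes had a mean of 1 to 5. The median log2 difference of these genes was -0.05 for HO against RA, 0.11 for HO-rWNT5A against HO and 0.04 for HO-rWNT5A against RA. In HO against RA, 2 passed limma, both lower, where 1.97% of all genes did. Gm24564, a 75-base RNA within Rian, an imprinted noncoding gene that hosts many C/D RNAs, had 3.83, 3.31 and 3.63 FPKM in RA and 1.86, 1.8 and 1.49 in HO, a log2 difference of -0.76 ± 0.142 (limma adjusted p = 0.0316). Gm22672 in Lpp had 4.5, 4.42 and 3.25 in RA and 0.394, 1.34 and 1.83 in HO, a log2 difference of -1.26 ± 0.235 (limma adjusted p = 0.0316). In HO-rWNT5A against RA, 1 of the 143 passed as higher and 1 as lower, where 4.26% of all genes passed. Gm23442 in Prrc2a rose from 3.22, 4.32 and 3.87 to 7.06, 6.51 and 5.44 (log2 difference 0.61 ± 0.137, limma adjusted p = 0.0373). In the same comparison Snord110, in an intron of the C/D core protein gene Nop56, fell from 2.04, 2.15 and 1.98 to 0.919, 0.997 and 1.32 (log2 difference -0.56 ± 0.0937, limma adjusted p = 0.0126). These 4 genes were named after their values were seen, and each rests on few fragments.

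Families outside the group gave further levels. All 17 Snord116 entries, an imprinted C/D family expressed mainly in neurons, were listed at 0. Snord118 (U8), which is needed for processing of the large-subunit ribosomal RNAs, had a summed mean of 2.7 FPKM, and Snord13 had 1.04.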
